A study of Mus musculus with 12 samples.

Results

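Gene expression in RA differentiated mouse N2A neuroblastoma cells was compared between control cells and cells in which Dali, a long non-coding RNA, was stably knocked down (KD). The comparison rests on 6 of the 12 arrays of the series, 3 of KD cells and 3 of control cells, all after retinoic acid, and was described across 19938 genes, each measured by 1 probe set. KD cells carried a vector for a short hairpin RNA (shRNA) against Dali, and control cells a vector for a scrambled shRNA. Both had been co-transfected with a hygromycin resistance plasmid and expanded from drug resistant clones under 200 ug/ml Hygromycin B. After a day of growth in 10% serum, the medium was exchanged for one with 2% serum and 20 uM all-trans retinoic acid (RA), in which the cells stayed for 72 h, so a change that RA brings cannot be told apart from one that less serum brings. The other 6 arrays were of proliferating KD and control cells without RA, and served only to ask whether a change was different there. The study speaks of several clonal KD lines and of a control line. Whether a group's 3 arrays came from separate clones or separate cultures is not in the labels, so the p-values below measure only the spread between these samples, and differences between clones cannot be told apart from an effect of Dali.

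N2A cells come from a mouse neuroblastoma and resemble immature sympathetic neurons. RA, a derivative of vitamin A, binds nuclear receptors that switch on genes such as those of the Hox cluster and of the enzymes that break RA down, and N2A cells answer to it by leaving the cell cycle and extending neurites. Neurite growth draws on the actin and microtubule cytoskeleton, on adhesion and guidance receptors at the growth cone, and on a supply of membrane lipids that includes cholesterol. Dali is transcribed close to Pou3f3, a POU-domain transcription factor gene of the developing nervous system, and the comparison addresses which genes depend on Dali once differentiation has been induced.

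The study lists 4 hairpin designs against Dali. They are shown because they are the perturbation itself, each as the 18 bases that precede the hairpin loop, in capitals throughout. Which of them the stable lines carried is not given in the sources used here, and their genome positions were not analysed here.
Linc8sh74: GCTTGGATTCAGTTCCTA
Linc8sh862: AGCTACTGATGAGACATA
Linc8sh906: ATCAACACTCATCAAGAA
Linc8sh1000: TGGTCTACAGTAGAGAAT

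No probe set was assigned to Dali, so the knockdown could not be checked on these arrays. The 6 arrays after RA had medians between 7.146 and 7.209 on the log2 scale. The 3 KD arrays correlated with each other at 0.9965 to 0.9974, the 3 control arrays at 0.9973 to 0.9976, and KD with control arrays at 0.9932 to 0.9942, and 0 pairs of arrays held identical values. The cells carried markers of the sympathoadrenal lineage, for example Hand2 at 10.91 and 10.96 (mean log2 level in control and KD cells), Gata2 at 9.81 and 9.78 and Tubb3 at 10.49 and 10.48. Not all were high, since Dbh in control cells lay close to the array medians and to the glial marker Sox10 (7.15). Of the 10 measured neuroblast markers 1 was called higher (Dbh) and 1 lower (Phox2a), and the mean level over the 10 was 9.197 to 9.232 on control arrays and 9.175 to 9.317 on KD arrays. None of the 6 glial and none of the 8 immune and endothelial markers was called, but only 2 and 5 of them varied enough to be tested. The 2 tested glial markers, Sox10 (-0.23) and Gfap (-0.17), were lower in KD cells without overlap, by less than the 1.3-fold needed for a call. Of the 8 fibroblast markers 1 was called, Pdgfrb, with the list's mean level at 6.808 to 6.935 in control and 6.687 to 6.881 in KD cells. The glial markers stood between the 24.22 percentile (Aqp4) and the 44.51 percentile (Sox10) of all gene levels, and the immune and endothelial markers between 14.43 (Ptprc) and 45.47 (Cd3e).

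After RA, 769 genes differed between KD and control cells, which is 7.71% of the 9969 genes tested and 3.86% of the 19938 measured. KD cells were higher in 370 (3.71% of those tested) and lower in 399 (4%). A gene was called when its adjusted p in limma, with Benjamini-Hochberg adjustment over all genes tested, was under 0.05 and its change at least 1.3-fold, 0.38 on the log2 scale. Most changes were small: the called genes moved by a median of 1.4-fold, and 30 moved over 2-fold, 8 upwards and 22 downwards. The values of the 3 KD and the 3 control arrays did not overlap for 759 of the 769 called genes, beside 44.5% of all genes tested. The split depends on the scaling, since 48.1% of calls were higher in KD cells as deposited, 33.9% after each array was centred on its median over all probe sets and 55.8% after centring on the median over the genes kept. As these were bulk samples, fewer cells that express a gene and less RNA of it per cell cannot be told apart.

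**Figure D1:**
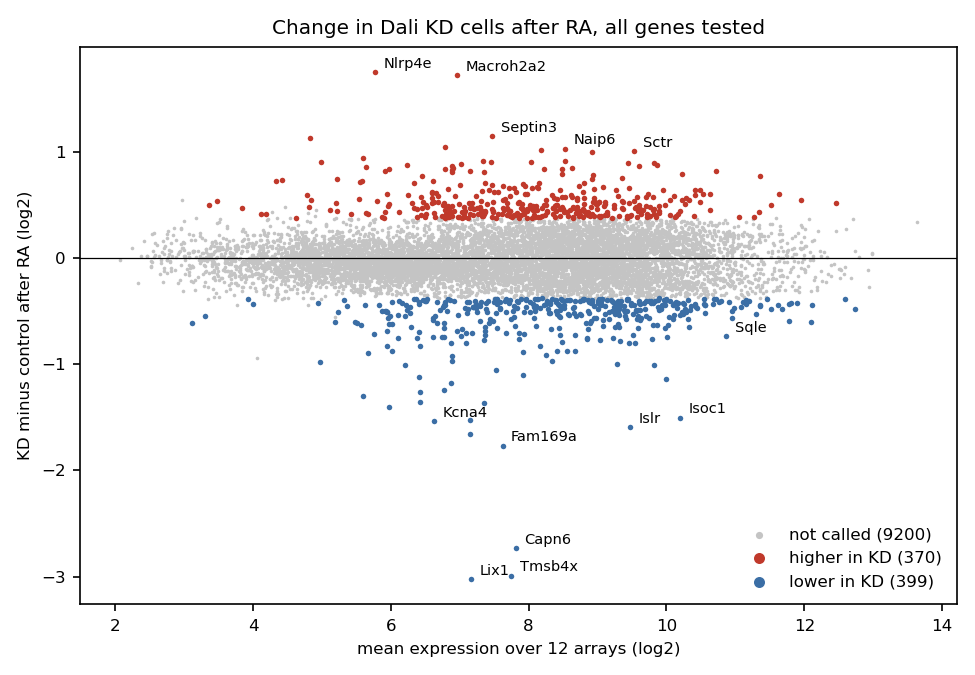
The change in KD cells after RA (vertical axis, KD minus control, log2) is plotted against the mean expression over 12 arrays (horizontal axis, log2), 1 point for each of the 9969 genes tested. Called genes are red (370 higher in KD) or blue (399 lower), and 3 genes, Lix1, Tmsb4x and Capn6, lie apart from all others near the lower edge.

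The largest falls belonged to 3 genes, Lix1, Tmsb4x and Capn6, each more than 6-fold. Lix1 stood at 8.66, 8.53 and 8.62 (log2) on the control arrays and at 5.45, 5.85 and 5.43 on the KD arrays, an 8.12-fold difference (-3.02 ± 0.11, log2 and SE, adjusted p = 1.4e-08). Tmsb4x, which encodes thymosin beta-4, a peptide that sequesters actin monomers, stood at 9.30, 9.23 and 9.38 in control and at 6.30, 6.44 and 6.19 in KD cells (7.95-fold, adjusted p = 1.22e-07). Capn6, a calpain-family gene without protease activity that is tied to microtubules, stood at 8.98, 9.09 and 9.0 and at 6.46, 6.24 and 6.17 (6.64-fold, adjusted p = 8.37e-09). All KD arrays lay over 2 log2 units below all control arrays for these genes. Fam169a (-1.77 ± 0.08), the cytochrome P450 gene Cyp4f39 (-1.66 ± 0.08) and Islr (-1.59 ± 0.05), which encodes a secreted protein with leucine-rich and immunoglobulin-like repeats, followed.

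Further large falls came from genes of an ion channel, signalling and a receptor. Kcna4, a voltage-gated potassium channel of the A type, stood at 8.02, 8.14 and 7.97 in control and at 6.63, 6.55 and 6.35 in KD cells. Arhgdib, which encodes a GDP dissociation inhibitor, stood at 7.95, 7.70 and 7.52 and at 6.05, 6.36 and 6.17, so both groups spread more widely than for Kcna4 without touching. Isoc1, an isochorismatase-domain gene, was among the more highly expressed of these genes and fell from 11.39, 11.49 and 11.46 to 9.98, 9.96 and 9.89 (-1.50 ± 0.05, adjusted p = 6.87e-09). The adjusted p in limma was 6.01e-07 for Kcna4 and 8.18e-06 for Arhgdib. Etl4 (-1.37), the interleukin 13 receptor gene Il13ra1 (-1.35) and Gca, which encodes the calcium-binding protein grancalcin (-1.29), completed the 12 largest falls among genes whose arrays did not overlap, with predicted, small RNA and olfactory or vomeronasal receptor genes left out here and among the rises.

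The largest rises were smaller than the largest falls. Nlrp4e, of the NOD-like receptor family, stood at 4.55, 5.03 and 5.14 in control and at 6.48, 6.98 and 6.51 in KD cells (3.37-fold, adjusted p = 1.4e-05), and its level was at the 19.22 percentile of all genes. Macroh2a2, which encodes a variant of histone H2A found in repressed chromatin, stood at 6.29, 6.19 and 6.19 and at 7.64, 8.26 and 7.95 (3.3-fold, adjusted p = 0.000592). Septin3, a neuronal septin, rose from 7.13, 6.99 and 6.75 to 8.14, 8.23 and 7.95 (1.15 ± 0.10). The KD arrays of Macroh2a2 spread more widely than its control arrays, and the lowest of them still exceeded every control array.

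Cyp39a1, an oxysterol hydroxylase on the way to bile acids, rose by 1.05 ± 0.14, the secretin receptor gene Sctr by 1.01 ± 0.05, and Milr1, an immunoglobulin-like receptor known from mast cells, by 1.02 ± 0.08. Naip6 (1.03) and Naip5 (1.00) encode sensors of bacterial proteins. H2-M10.1, a class Ib histocompatibility gene, rose by 0.92, the monocarboxylate transporter gene Slc16a12 by 0.91, the clustered protocadherin gene Pcdhb9 by 0.91 and the zinc finger gene Zfp827 by 0.91. No adjusted p in limma among these 9 genes exceeded 0.00128.

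**Figure D2:**
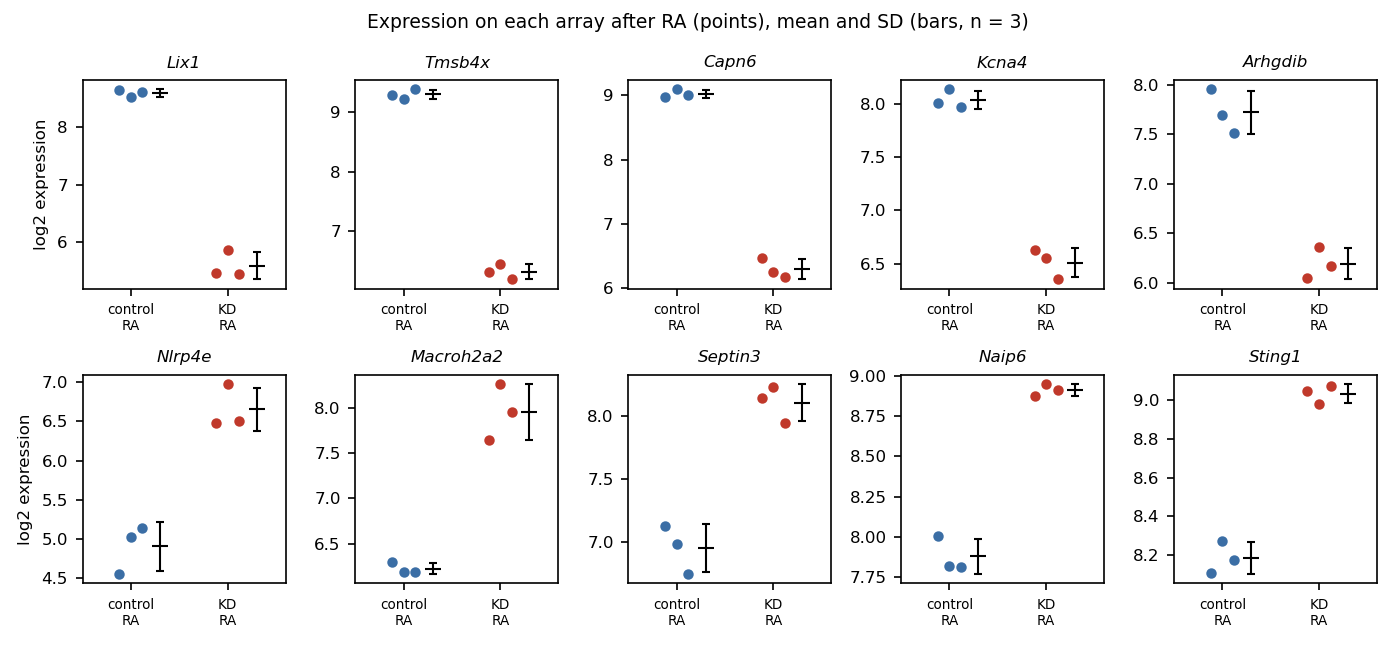
The 10 genes shown each have their own vertical scale (log2 expression), and points are the 3 control and 3 KD arrays after RA, next to which bars give mean and SD (n = 3). The first 5 genes were lower and the last 5 higher in KD cells, and the points of the groups do not overlap for any of them.

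Many enzymes of cholesterol synthesis were lower in KD cells. Cholesterol is built from acetyl-CoA by way of mevalonate and squalene, and the genes of this pathway are switched on together by the transcription factor SREBP2, encoded by Srebf2, when sterols run low. All 17 measured enzymes had a negative change, 9 of them were called lower and 0 higher. The median change was -0.43 over the 7 genes from mevalonate to squalene and -0.39 over the 10 from squalene to cholesterol, beside -0.03 over all genes. In proliferating cells the medians of the 2 lists were -0.256 and -0.262, with 1 and 3 genes called. In both lists 0 genes had a called interaction, so the fall was not shown to be particular to cells after RA.

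Among the early steps Fdft1, which encodes squalene synthase, stood at 11.04, 11.14 and 11.19 in control and at 10.59, 10.56 and 10.54 in KD cells (-0.56 ± 0.06, adjusted p = 3.12e-05). Idi1 (-0.53), Fdps (-0.52) and Mvd (-0.43), of the isoprenoid steps before it, were also called. For Hmgcs1, the entry enzyme, the arrays stood at 9.95, 9.83 and 9.98 and at 9.79, 9.64 and 9.63, without overlap but below the fold threshold (-0.23 ± 0.06, adjusted p = 0.0105), as were Mvk (-0.37) and Pmvk (-0.33). Sqle, the squalene epoxidase that opens the sterol part of the pathway, changed most, from 11.16, 11.18 and 11.15 to 10.45, 10.45 and 10.38 (1.66-fold, adjusted p = 1.29e-06). Nsdhl (-0.59), Cyp51 (-0.55), Hsd17b7 (-0.50) and Dhcr7 (-0.44) were called among the later enzymes. Mvd lost its call without the second KD array and Dhcr7 without the third. Msmo1 (-0.35), Ebp (-0.32), Lss (-0.24), Sc5d (-0.22) and Tm7sf2 (-0.19) had adjusted p-values of at most 0.0461 with less than a 1.3-fold change. With the median change of the neighbouring genes subtracted, the change of Tm7sf2 was 0.002.

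Of the genes that control the pathway, Srebf2 itself fell from 11.02, 11.07 and 10.95 to 10.57, 10.49 and 10.49 (-0.50 ± 0.05, adjusted p = 1.57e-05), and Insig1, which retains the SREBP precursor in the endoplasmic reticulum and is itself a target of SREBP, fell by 0.50 on the log2 scale. Both lost their call with the neighbours' median change subtracted, which left 0 of the 9 measured regulators called. Scd1, a fatty acid desaturase, was the only one of 13 genes of fatty acid synthesis to be called (-0.69 ± 0.12), and the list's median was -0.20. Abca1, the transporter that carries cholesterol out of the cell and is switched on by oxysterols, was lower as well, at 8.59, 8.53 and 8.53 in control and 8.09, 8.07 and 8.04 in KD cells.

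**Figure D3:**
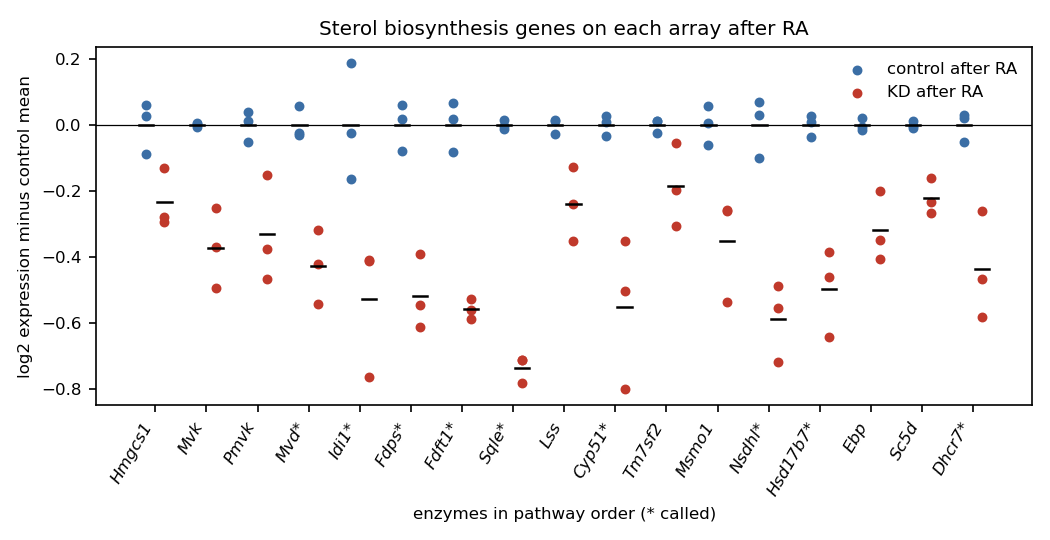
Expression of the 17 measured enzymes of sterol synthesis on each array after RA, as the log2 value minus the control mean of that gene (vertical axis), in pathway order (horizontal axis, called genes with an asterisk). Black lines are group means (n = 3), and every KD mean lies below 0, from -0.19 for Tm7sf2 to -0.74 for Sqle.

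Promoter windows of these enzymes were searched on both strands for the sterol regulatory element TCACNCCAC, the best known SREBP site, and for CCAAT, the box bound by NF-Y, which acts beside SREBP at sterol genes. The windows reach from upstream of a RefSeq gene start (GRCm38.p6) into the first transcribed bases, and 14 of the 17 enzymes had one. CCAAT was present in 14 of the 17 windows of these 14 genes, 2 of which had several windows, and in 37.4% of all 32851 windows. TCACNCCAC was present for 1 of the 14 genes and in 1.24% of all windows. Hmgcs1 is shown because it holds both motifs, and Nsdhl as the enzyme with the largest fall among those with a window, with CCAAT or its reverse complement ATTGG and the SREBP site in capitals. The motifs do not overlap, and a match is a description of the letters, not of binding.
Hmgcs1 (chr13:119690101-119690400, plus strand, GRCm38.p6): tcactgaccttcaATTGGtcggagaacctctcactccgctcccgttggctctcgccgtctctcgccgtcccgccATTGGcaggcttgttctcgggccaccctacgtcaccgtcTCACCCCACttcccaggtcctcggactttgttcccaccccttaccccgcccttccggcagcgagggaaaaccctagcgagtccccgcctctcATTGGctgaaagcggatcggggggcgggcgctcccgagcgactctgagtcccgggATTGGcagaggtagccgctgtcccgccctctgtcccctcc
Nsdhl (chrX:72918271-72918570, plus strand, GRCm38.p6): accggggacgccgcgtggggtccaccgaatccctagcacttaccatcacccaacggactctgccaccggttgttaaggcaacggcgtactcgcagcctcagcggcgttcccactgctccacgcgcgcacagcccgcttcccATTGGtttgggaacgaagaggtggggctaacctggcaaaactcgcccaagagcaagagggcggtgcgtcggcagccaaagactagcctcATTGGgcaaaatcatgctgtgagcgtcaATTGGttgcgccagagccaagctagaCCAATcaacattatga

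Genes of neurite growth moved in both directions, one by one rather than as whole groups. Of 31 genes of neuronal microtubules and the growth cone 3 were called, all lower: Dcx, the doublecortin gene of migrating neurons, fell from 5.85, 6.14 and 5.69 to 5.48, 5.28 and 5.13, the neuronal tubulin gene Tubb2b from 10.40, 10.46 and 10.52 to 10.09, 10.01 and 9.83, and Stmn4, of the tubulin-binding stathmins, from 8.12, 8.17 and 8.18 to 7.75, 7.65 and 7.80. The level of Dcx was low in both groups, with the immune marker Ptprc at a mean of 5.45 in control and 5.46 in KD cells. The list's median was -0.09, and Stmn4 lost its call with the neighbours' median change subtracted. Of 26 actin regulators only Tmsb4x (lower) and Scin, an actin-severing gelsolin relative (0.50 ± 0.06), were called. As a background to these counts and those of the lists that follow, 3.86% of all measured genes were called. Capn6 had as counterpart Cast, the calpain inhibitor calpastatin, which was higher by 0.51 ± 0.05 but whose neighbouring genes were higher by a median of 0.31.

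Of 25 neural adhesion genes of the immunoglobulin superfamily, 4 were called lower and 1 higher, and the median was -0.06. Nrcam, an ankyrin-binding adhesion gene of axons, stood at 7.06, 6.89 and 6.97 in control and at 5.82, 6.03 and 5.71 in KD cells (2.18-fold, adjusted p = 8.51e-06). Its relative Nfasc (-0.69 ± 0.10), the contactin gene Cntn6 (-0.90 ± 0.17) and Dscam (-0.49 ± 0.07) were lower too, whereas Cntn3, another contactin, rose from 9.55, 9.57 and 9.58 to 9.97, 10.12 and 10.09. Cntn6 was the least even of them, with KD arrays at 4.76, 5.66 and 5.29. These levels were low, beside a mean of 5.46 for the immune marker Ptprc in KD cells.

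Of 30 axon guidance receptor genes 3 were called lower and 0 higher: the netrin receptor gene Unc5a fell from 9.10, 9.16 and 9.08 to 8.13, 8.10 and 8.19 (1.96-fold, adjusted p = 3.55e-07), the neuropilin gene Nrp2 by 0.54 on the log2 scale and the plexin gene Plxnd1 by 0.52. None of the 27 guidance ligand genes was called, with changes from -0.30 to 0.14. A difference between the receptor and the ligand list was not tested. Among 38 genes of collagens, laminins and integrins, Itga8 (-0.58), Itga3 (-0.54) and Itga1 (-0.38) were lower and Lama5 higher (0.47). Itga1 lost its call without the third control array or without KD array 1 or 3, and with arrays centred on the genes kept, repeated quantile normalisation or array weights.

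Genes of retinoid handling were called in both directions, 1 higher and 2 lower of 14. Cyp26b1, which encodes an enzyme that degrades RA and is switched on by it, stood at 8.95, 8.78 and 8.95 in control and at 8.17, 8.19 and 8.21 in KD cells after RA (-0.70 ± 0.10, adjusted p = 0.000273). Before RA it stood between 7.14 and 7.48 in control and between 6.90 and 7.25 in KD cells, where the ranges overlapped. Its interaction, the KD change after RA minus that in proliferating cells, was -0.53 ± 0.14 and missed the threshold (adjusted p = 0.0864). Stra6, the membrane receptor that takes up retinol, was higher in KD cells (9.24, 9.49 and 9.41 against 10.07, 9.99 and 10.00), and Rbp4, the retinol carrier of plasma, was lower (-0.48 ± 0.07). Of 10 genes of retinoid receptors and their coregulators only Nrip1, a corepressor gene, was called, at -0.38 ± 0.05, and it lost that call with repeated quantile normalisation or with arrays centred on the genes kept.

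Of 36 Hox genes and their TALE cofactors 1 was called, 6.67% of the 15 tested. Meis1, a TALE homeobox gene, stood at 8.93, 8.96 and 8.83 in control and at 8.05, 8.16 and 8.02 in KD cells (-0.83 ± 0.06, adjusted p = 4.65e-06), and the list's median was -0.08. Of 16 sympathoadrenal transcription factors 1 was called, Phox2a, a homeobox gene needed for noradrenergic neurons (9.82, 9.70 and 9.82 against 9.49, 9.35 and 9.24), and it lost the call without the third KD array. This call was 9.09% of the 11 factors tested, beside 7.71% over all genes. Among 25 Dlx, Pax and POU genes, Pax3, a neural crest regulator (-0.80 ± 0.09), and the forebrain homeobox gene Dlx1 (-0.50 ± 0.06) were lower.

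Pou3f3, the neighbour of Dali, stood at 7.28, 7.20 and 7.37 in control and at 7.14, 7.30 and 7.31 in KD cells after RA, with overlapping arrays, and had too little variation to be tested. Pantr1, a non-coding transcript gene next to Pou3f3, stood at 5.57, 5.50 and 5.42 and at 5.14, 5.30 and 5.34, a change of -0.24 ± 0.08 that was below the fold threshold (adjusted p = 0.0425) at a level near the bottom of the array. E2f2, a cell cycle transcription factor gene (0.25), Dkk1, a secreted Wnt inhibitor (0.17), and the Wnt receptor gene Fzd5 (0.35) were also below the fold threshold.

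Of the other developmental pathways, none of 26 Notch genes, 1 of 29 BMP genes (the receptor gene Bmpr1b, -0.47 ± 0.06) and 2 of 44 Wnt genes were called. Of the genes tested this was 0 of 10, 6.67% of 15 and 8.7% of 23, beside 7.71% over all genes. The Wnt receptor gene Fzd6 (-0.67 ± 0.07) and Dkk3 (-0.43 ± 0.04), of the Dickkopf family, were both lower.

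Genes of synapses and excitability were mostly not called, and those that were went both ways. Of 29 genes of synaptic vesicles 3 were lower, among them Syn1, which encodes a vesicle-tethering phosphoprotein (9.31, 9.40 and 9.30 against 8.92, 8.88 and 8.84). The endosomal sorting gene Nsg1 (-0.50) and Rab3a, a vesicle GTPase (-0.38), were lower too, and the priming factor gene Unc13a was higher (0.53), though not with the mean of its 3 probe sets. Nsg1 lost its call with the neighbours' median change subtracted, and Rab3a without array 1 or 3 of either group and with arrays centred on the genes kept, repeated quantile normalisation or array weights. Of 52 neurotransmitter receptors 3 were called, all higher. Gria2, which encodes the subunit that makes AMPA receptors impermeable to calcium, stood at 8.72, 8.60 and 8.56 in control and at 9.13, 9.15 and 9.12 in KD cells (0.51 ± 0.05, adjusted p = 1.55e-05). Gabrb2 (0.42 ± 0.09), at the 3.215 percentile of levels, and Chrna5 (0.39 ± 0.11) were the other two, and 1 gene of the list was called without the second KD array. Gabrb2 also lost its call without the first control array or when its probe sets were averaged, and Chrna5 without the third control or first KD array, with arrays centred on all probe sets, with the neighbours' median change subtracted and in a fit to the 6 arrays after RA.

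Of 46 potassium channel genes Kcna4 and Kcnh7 were called, both lower, Kcnh7 from 7.07, 7.24 and 7.24 to 5.83, 5.92 and 6.02. These calls were 9.09% of the 22 potassium channel genes tested, near the 7.71% over all genes. Of 28 sodium and calcium channel genes Scn1a was lower (-0.56) and Scn3a (0.47) and Cacna1g (0.44) were higher. Among 25 genes of neuropeptides and their processing, Pcsk1n, an inhibitor of prohormone convertase (-0.76 ± 0.06), and the granin gene Chgb (-0.44) were lower and the carboxypeptidase gene Cpe higher (0.41). Chgb lost its call without the third KD array, and Cpe with arrays centred on all probe sets or the neighbours' median change subtracted. Of 15 genes of catecholamine and acetylcholine handling only Dbh, the enzyme that makes noradrenaline, was called, at 7.28, 7.17 and 7.29 in control and 7.85, 7.56 and 7.55 in KD cells. The level of Dbh in control cells was thus close to the array medians of 7.146 to 7.209. Dbh lost the call without the second control or first KD array and with arrays centred on all probe sets.

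Immediate early genes and feedback inhibitors of the ERK pathway, which growth factors induce, were called lower in 5 of 27 cases and higher in none, with a median of -0.10. The calls were 22.7% of the 22 tested, beside 7.71% over all genes. Changes were below 0 in 17 of the 27 and above 0 in 10. Those above 0 included Fos (0.10), Egr1 (0.04), Dusp6 (0.03), Dusp4 (0.23) and Ier2 (0.30). Atf3, a stress-induced transcription factor gene, stood at 9.41, 9.48 and 9.35 in control and at 8.80, 8.83 and 8.75 in KD cells (-0.62 ± 0.06). Dusp10, a phosphatase gene of the JNK and p38 kinases (-0.59), the AP-1 genes Fosl2 (-0.47) and Jun (-0.42), and Spry1, an inhibitor of receptor tyrosine kinase signalling (-0.38), were also lower. Jun lost its call without the third KD array, and Fosl2 with the neighbours' median change subtracted. Spry1 lost its call without control array 2 or 3 or KD array 1 or 2, and with arrays centred on the genes kept or repeated quantile normalisation. Among 26 growth factor receptor genes Igf2r (-0.42) and Pdgfrb (-0.39) were lower and Ltk, a receptor tyrosine kinase gene, was higher (0.54). Igf2r lost its call without the second KD array, and Pdgfrb without the second control or first KD array, with arrays centred on the genes kept and with the neighbours' median change subtracted.

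Few cell cycle genes were called. The share was 5.71% of 35 tested genes of G1 and S phase and 6.06% of 33 mitotic genes, beside 7.71% over all genes. Of 38 genes of G1 and S phase Rbl1 (0.40) and E2f3 (0.39) were higher, both above the threshold by so little that neither was called after centring on all probe sets. Of 33 mitotic genes Ttk, a spindle checkpoint kinase gene, was higher (0.41), and Cks2, a cofactor of cyclin-dependent kinases, was lower (-0.52 ± 0.04). Ttk lost its call without the second KD array, with arrays centred on all probe sets and with the neighbours' median change subtracted. Of 28 genes of glycolysis and hypoxia the muscle-type phosphofructokinase gene Pfkm was called (-0.49), together with a median of -0.20 over its neighbours. None of 28 genes of the amino acid response and ER stress was called, and of 23 genes of DNA methylation and its partners Tet1, a 5-methylcytosine dioxygenase gene, was lower (-0.57 ± 0.07).

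Most listed genes of innate immunity were not called, and those that were called were higher. Over all genes, 7.71% of those tested were called in either direction. Of 25 Naip and Nlr genes, 14 of them tested, 6 were higher and 0 lower. The list's median was 0.03, with 11 changes below 0. Naip6 stood at 8.0, 7.82 and 7.82 in control and at 8.88, 8.95 and 8.91 in KD cells, Naip5 at 8.21, 8.35 and 8.20 and at 9.19, 9.25 and 9.32, and Naip2 was higher by 0.53 but not called with the neighbours' median change subtracted. The Naip genes are near-identical copies that lie side by side, so their probes may share signal, and the 50 genes around Naip5 and Naip6 had a median change of 0.27. Nlrp4f (0.54), a relative of Nlrp4e, was also called. Of 28 interferon response genes Ifitm3, which blocks the entry of viruses (6.86, 6.94 and 6.52 against 7.57, 7.73 and 7.75), and the interferon signalling gene Irf9 (0.41) were higher, Irf9 not with arrays centred on all probe sets. These 2 calls were 8.7% of the 23 interferon genes tested, near the share over all genes, and 13 of the 28 changes were below 0. Casp8 (0.67), the initiator caspase of death receptors, and Ddb2 (0.48), a p53 target in DNA repair, were the called members among 29 genes of p53 and apoptosis, and none of 16 antigen presentation genes was called.

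The groups that follow were picked after their values had been seen and carry no test as groups. Of 12 measured genes of cytosolic DNA sensing, 7 of them tested, 3 were called higher and 0 lower. Changes were below 0 in 5 of the 12, with a median of 0.04. Over all genes, 7.71% of those tested and 3.86% of those measured were called in either direction. Sting1, the adaptor of the pathway, stood at 8.11, 8.27 and 8.18 in control and at 9.05, 8.98 and 9.07 in KD cells (1.8-fold, adjusted p = 5.81e-06), and Cgas, the sensor that feeds it, at 5.72, 5.55 and 5.59 and at 6.60, 6.34 and 6.39 (1.77-fold, adjusted p = 1.32e-05). The nuclease gene Mre11a was higher by 0.39 and lost its call without the third control or first KD array, with arrays centred on all probe sets and with the neighbours' median change subtracted. The downstream genes Tbk1 (0.18), Irf3 (-0.01) and Irf7 (-0.08) were not called.

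The clustered protocadherins of the beta group were higher almost throughout. These are cell surface proteins that give single neurons a distinct identity, encoded by a row of similar genes. Of the 22 Pcdhb genes all were tested and all had a positive change, 19 were called higher and 0 lower, and the median was 0.63. Pcdhb12 stood at 6.78, 6.79 and 6.74 in control and at 7.77, 7.72 and 7.47 in KD cells (1.85-fold, adjusted p = 1.55e-05), and Pcdhb9 at 4.84, 4.86 and 4.60 and at 5.76, 5.77 and 5.50. The level of Pcdhb9 was low, with the immune marker Ptprc at a mean of 5.45 in control and 5.46 in KD cells. The 3 that were not called were Pcdhb17 (0.36), Pcdhb21 (0.37) and Pcdhb1 (0.08), whose arrays overlapped. The mean level over all 22 was 6.64 to 6.66 on control arrays after RA and 7.22 to 7.30 on KD arrays. In proliferating cells it was 6.38 to 6.40 and 6.90 to 6.96, 17 of the genes were called higher there, and 0 had a called interaction. The genes around them had a median change of -0.01, and similar copies may share signal on the probes. Of the 11 protocadherin genes outside the clusters all had negative changes, 1 of them called, Pcdh15 (-0.75 ± 0.11), which lost its call with the mean of its probe sets.

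Many small nucleolar RNAs, which guide the chemical modification of ribosomal RNA, were higher in KD cells after RA. Of 31 box C/D genes 16 were called higher and 0 lower (median 0.43), and of 20 box H/ACA genes 10 were higher and 0 lower (median 0.38). The mean level over the box C/D genes was 9.16, 9.01 and 9.03 on control arrays and 9.56, 9.43 and 9.48 on KD arrays, and that over the box H/ACA genes 9.66, 9.63 and 9.56 and 10.12, 9.92 and 10.02. In proliferating cells the box C/D means overlapped, at 9.14 to 9.37 in control and 9.21 to 9.43 in KD cells, with 2 genes called. Snord49a stood at 8.94, 8.92 and 9.0 in control and at 9.53, 9.61 and 9.66 in KD cells after RA, and Snora33 at 9.67, 9.40 and 9.33 and at 10.56, 10.26 and 10.28. Without the third control array after RA, 6 box H/ACA genes were called. Snord49a, Snord49b, Snord52 and Snord15b also had a called interaction.

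Most small nucleolar RNAs are cut from introns of host genes, and the probe sets cannot tell the mature RNA from that intron. Of 7 host genes measured 3 were called, all higher: Gas5 (7.49, 7.59 and 7.70 against 8.31, 8.23 and 7.82), Snhg5 (0.55 ± 0.06) and Taf1d (0.55 ± 0.06), and Gas5 lost its call with the mean of its 4 probe sets. Of 5 spliceosomal small nuclear RNAs Rnu5g was higher, at 4.56, 4.57 and 4.32 in control and 5.89, 5.65 and 5.31 in KD cells. Its level was low, with the immune marker Ptprc at a mean of 5.45 in control and 5.46 in KD cells.

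Of 296 microRNA genes, 155 of them tested, 16 were called, 13 higher and 3 lower, with a median of 0.02 over all of them. Over all genes, 7.71% of those tested were called. The probe sets lie on the hairpin genes, so the values are not levels of the mature microRNAs. Some of those called share a seed, the bases 2 to 8 that pair with targets. How often the measured microRNA genes share a seed was not counted. Mir15a (9.71, 9.47 and 9.64 against 10.05, 10.11 and 10.13), Mir16-1 (0.50) and Mir15b (0.49) share the seed AGCAGCA, and Mir19a (0.38) and Mir19b-1 (0.39) share GUGCAAA, although Mir19a overlapped between the groups. Mir301 rose by 0.74 ± 0.11. Mir99a fell from 6.65, 6.61 and 6.47 to 5.87, 5.94 and 6.07, and its host transcript Mir99ahg from 5.92, 5.43 and 5.74 to 4.48, 4.74 and 4.93. The level of Mir99ahg was low, with the immune marker Ptprc at a mean of 5.45 in control and 5.46 in KD cells. RefSeq (GRCm38.p6) held mature sequences for 15 of the 16 genes, and the 7 named here are shown with the seed in capitals, to show which of the called genes share one.
miR-15a-5p: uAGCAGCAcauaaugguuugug
miR-15b-5p: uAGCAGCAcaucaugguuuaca
miR-16-5p: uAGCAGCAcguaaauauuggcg
miR-19a-3p: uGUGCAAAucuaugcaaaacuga
miR-19b-3p: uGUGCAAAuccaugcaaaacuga
miR-301a-3p: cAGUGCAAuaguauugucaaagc
miR-99a-5p: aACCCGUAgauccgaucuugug

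Among enzymes that detoxify electrophiles, called genes were lower but most genes were not called. Of 23 glutathione S-transferase genes, which attach glutathione to reactive compounds, 8 were called lower and 0 higher, and 6 of the 8 were of the mu class. Of the 23, 12 were tested, and over all genes 7.71% of those tested were called. The other 15 were not called, 6 genes had positive changes and the median was -0.10. Gstm5 stood at 9.60, 9.56 and 9.65 in control and at 8.77, 8.56 and 8.48 in KD cells (2-fold, adjusted p = 1.49e-06), and Gstm1 at 8.65, 8.76 and 8.67 and at 7.74, 7.70 and 7.91. Gstm2 (-0.72), Gstm3 (-0.71), Gstm4 (-0.46) and Gstm7 (-0.46) followed, with Gsto1 (-0.74) and Gstp1 (-0.39) of other classes. The mu genes are similar in sequence and may share signal. Of 26 antioxidant and epoxide enzymes 4 were lower, among them catalase, encoded by Cat (9.78, 9.92 and 9.79 against 8.97, 9.10 and 9.01), and Ephx1, an epoxide hydrolase (-0.74 ± 0.06). Srxn1, which restores oxidised peroxiredoxins (-0.45), and the quinone reductase gene Nqo1 (-0.41) were the others. Nqo1 lost its call without the second control array or the first or second KD array, with repeated quantile normalisation and in a fit to the 6 arrays after RA. The remaining 22 were not called, 8 genes of the list had positive changes and the median was -0.08.

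Some subunits of the respiratory chain were lower, and most were not called. Of 35 complex I subunits 29 had a negative change and 4 were called lower (median -0.19), of 9 complex III subunits 2 (median -0.25), of 14 complex IV subunits 1 (median -0.14) and of 17 ATP synthase subunits 4 (median -0.16). None was called higher. Uqcr11 of complex III changed most, from 10.11, 10.23 and 10.16 to 9.16, 9.11 and 9.22 (2.01-fold, adjusted p = 3.55e-07), Ndufa11 of complex I stood at 10.25, 10.22 and 10.16 and at 9.67, 9.44 and 9.56, and Atp5g2 at 12.33, 12.35 and 12.38 and at 11.88, 11.66 and 11.72.

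Of 317 zinc finger genes named Zfp with a number, 21 were called higher and 2 lower, with a median of 0.05. This count was sensitive to scaling, with 15 called in either direction after centring on all probe sets and 14 with the neighbours' median change subtracted. Zfp827 (7.56, 7.63 and 7.64 against 8.44, 8.51 and 8.59) and Zfp825 (0.82) were highest. By type of gene, 26 of 45 tested small nucleolar RNAs (57.8%), 24 of 292 long non-coding RNAs (8.22%), 16 of 156 microRNAs (10.3%) and 690 of 9271 protein-coding genes (7.44%) were called.

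**Figure D4:**
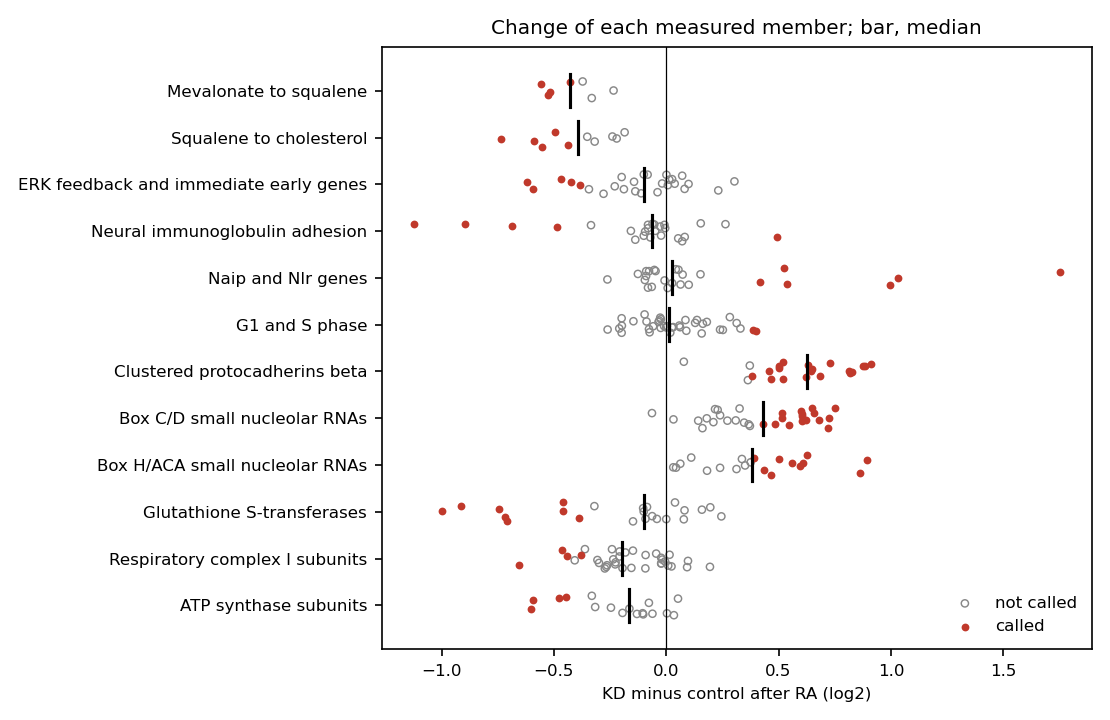
Change in KD cells after RA (horizontal axis, KD minus control, log2) of every measured member of 12 gene groups, with called genes as filled red points, others as open points and the median as a black bar (vertical position within a group carries no meaning). The 22 Pcdhb genes lie to the right of 0 around a median of 0.63 and the sterol enzymes to the left, at -0.43 and -0.39.

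The last question was which of the differences after RA were different from those in proliferating cells. Of the 769 called genes 362 were also called in the same direction in proliferating cells, 1 in the opposite direction and 406 were not called there, beside 6.96% of all genes tested that were called in proliferating cells. That a gene was called in only one state does not show a difference, and of these 406 genes 43 had a called interaction. In all, 57 of the 769 called genes had a called interaction, beside 124 (1.24%) of all genes tested. Among the 57 the change was larger after RA in 28, smaller in 8 and of the opposite sign in 21. Opposite sign was counted from the 2 estimates alone, including very small changes before RA such as that of Mir186 (-0.005). Only 1 gene was called in opposite directions in the 2 states. The count of 57 rests on many values near the threshold. It was 36 when variation was taken over the 6 arrays after RA, and leaving out any of the 12 arrays but the first KD array after RA, where it was 63, lowered it to between 20 and 37. The 2 knockdown changes were each measured against their own controls, and they enter the interaction together.

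Of the genes with changes of opposite sign, Mphosph6 was called in both states (0.38 before RA and -0.44 after it), with an interaction of -0.82 ± 0.18. Its fall after RA was not firm. Averaging its 2 probe sets left a change of -0.11, which was not called (adjusted p in limma 0.391). Leaving out the second control or the second KD array after RA also removed the call, at -0.35 each time. Jun, of the AP-1 complex, changed by 0.26 before RA, below the fold threshold. It stood at 9.90, 10.00 and 9.92 in control and at 10.20, 10.18 and 10.23 in KD cells while they proliferated, and at 9.78, 9.80 and 9.64 and 9.36, 9.38 and 9.22 after RA (interaction -0.68 ± 0.08, adjusted p = 0.00383). KD cells were thus the higher group on every array before RA and the lower group on every array after it. Stmn4 had the same form, at 8.47, 8.63 and 8.53 and 8.68, 8.91 and 8.87 before RA, with a change of 0.28 before RA, below the fold threshold, and an interaction of -0.70 ± 0.09. Phxr4 (0.79) and Chst15 (0.75), a sulfotransferase of chondroitin chains, also changed sign. Their changes before RA were -0.36 and -0.30, below the fold threshold. The interactions of Mphosph6 and Chst15 lost their calls under 15 and 10 of 22 other settings.

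Other genes differed more after RA. Isoc1 went in control cells from 10.16, 10.10 and 10.08 to 11.39, 11.49 and 11.46 and in KD cells from 9.28, 9.29 and 9.26 to 9.98, 9.96 and 9.89 (interaction -0.67 ± 0.06, adjusted p = 0.00166). Meis1 stood at 8.03, 8.04 and 7.87 in control and at 7.63, 7.71 and 7.72 in KD cells before RA, a smaller gap than after it (interaction -0.54 ± 0.09). Gria2 lay at 9.06, 9.01 and 9.03 and at 9.09, 9.11 and 9.10 before RA, where its change was 0.07, beside 0.51 after RA. Lix1 (-0.82), Milr1 (0.60), Kcnh7 (-0.44), Tubb2b (-0.42), Cat (-0.49) and Ndufa11 (-0.48) had larger changes after RA as well.

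A few changes were smaller after RA. Nos1, the neuronal nitric oxide synthase gene, stood at 8.12, 8.09 and 8.08 in control and at 6.83, 6.92 and 7.0 in KD cells before RA, and at 7.26, 7.38 and 7.32 and 6.97, 6.97 and 6.80 after it (interaction 0.77 ± 0.09, adjusted p = 0.00239). The groups did not overlap in either state. Tmsb4x, at 9.63, 9.72 and 9.72 and at 5.99, 5.29 and 5.77 before RA, H2bc4, a histone H2B gene, at 7.14, 7.03 and 7.15 and at 8.49, 8.61 and 8.67 before RA, and Pdgfrb were the other named genes of this kind.

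**Figure D5:**
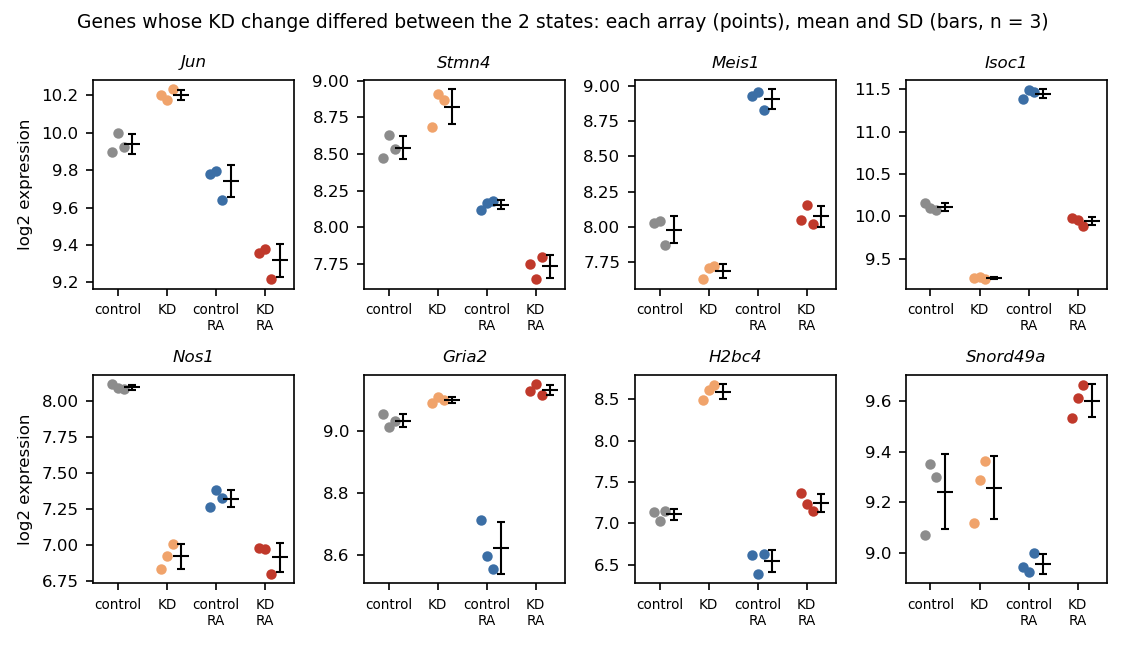
The 8 genes shown each have their own vertical scale (log2 expression), and points are the 12 arrays in their 4 groups, next to which bars give mean and SD (n = 3). KD lay above control before RA and below it after RA for Jun and Stmn4, the gap widened after RA for Meis1, Isoc1, Gria2 and Snord49a, and it narrowed for Nos1 and H2bc4.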

How the data were processed

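Expression had been measured on Affymetrix Mouse Gene 1.0 ST arrays, whose probes lie along whole transcripts. The log2 expression values used here were deposited by the authors, who normalised the arrays with RMA, which corrects background, quantile normalises and summarises probes. RMA and limma are named in the submitters' processing notes, with versions not given in the sources used here. RMA sets the probe intensities of all arrays to the same distribution before they are summarised, so a shift common to all genes cannot be seen. The summarised values still differed a little between arrays, with medians of 7.146 to 7.209 on the 6 arrays after RA. Precision is limited by how many arrays there are.

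Of 35556 probe sets 21789 had a single gene symbol in the platform annotation, 1621 several and 12146 none. For the 999 genes with several probe sets the one with the largest interquartile range over 12 arrays was kept. The lower 50% of genes by that range was not tested. limma 3.58.1 in R 4.3.3 fitted 4 group means to all 12 arrays, and p-values were adjusted by Benjamini-Hochberg over the 9969 genes tested. The interaction was the KD change after RA minus that in proliferating cells. Neighbour medians were taken over 25 genes on each side in RefSeq order. Named genes were the 12 largest called rises and the 12 largest called falls without overlap between groups, the 10 largest called interactions among genes called after RA (both leaving out predicted, small RNA and olfactory or vomeronasal receptor genes), up to 5 called members of each of 41 gene lists and 4 marker lists, every measured sterol enzyme, and 9 genes of which the study speaks. Further groups were picked after their values were seen. Members and lists were chosen with earlier results of these data known. The fit was tested on simulated data. Alternatives changed the fold cutoff, filter, scaling, probe set choice, replicate block and arrays included.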

Additional observations from a re-analysis of the deposited data

Results flagged for a closer look

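In 27 genes named here the KD change after RA differed from that in proliferating cells by the interaction term, given as log2 values with limma and Benjamini-Hochberg adjustment over all genes tested. The interaction was negative for Lix1 (-0.82), Mphosph6 (-0.82), H2bc4 (-0.78), Stmn4 (-0.70), Jun (-0.68), Isoc1 (-0.67), Meis1 (-0.54), Cat (-0.49), Ndufa11 (-0.48), Kcnh7 (-0.44), Tubb2b (-0.42), Gstm5 (-0.40) and Ephx1 (-0.38). It was positive for Gria2 (0.45), Pdgfrb (0.45), Mir155 (0.47), Snord49b (0.51), Snord52 (0.54), Mir186 (0.59), Milr1 (0.60), Snord49a (0.63), Snord15b (0.67), Chst15 (0.75), Nos1 (0.77), Phxr4 (0.79), Tmsb4x (1.01) and Rnu5g (1.33).

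Under 22 other settings, leaving aside the 1.5-fold cutoff, the interaction of Isoc1, H2bc4, Nos1, Stmn4, Jun, Meis1 and Gria2 was called each time. The others lost the call under at least 1 setting, from 1 for Phxr4 to 17 for Ephx1. Rnu5g, with the largest interaction of these genes but a low level, lost it under 13.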

How the results depend on the processing

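Without a fold cutoff 3726 genes passed (1763 higher, 1963 lower), with 156 interactions and 273 calls in lists, and at 1.5-fold 205 passed (95 higher, 110 lower), with 10 interactions and 30 calls in lists. Leaving out 1 array gave 768 to 850 called genes and 20 to 63 interactions, and taking the interquartile range over the 6 arrays after RA gave 36 interactions. Subtracting the neighbours' median gave 678 called genes, and turned Tm7sf2 to 0.002183. Deviations of control and KD arrays sharing a replicate number after RA correlated at 0.185, -0.0251 and 0.13. Arrays of unlike number correlated at -0.233 to 0.126, so these small values do not settle whether arrays were paired. Proliferating arrays were not compared in this way. The methods name no pairing, and arrays were not taken as pairs. A replicate block gave 773 called genes and 41 interactions. Repeating the quantile normalisation gave 793 calls, 54.7% of them higher, centring on all probe sets 818 (33.9% higher) and centring on the genes kept, chosen after seeing the data, 788 (55.8% higher). Of 108 called named genes 63 lost the call at 1.5-fold, 34 under another setting and 21 when 1 array was left out.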
